A study of Mus musculus with 6 samples.

Results

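The AP-1 and immediate-early transcription factors described here are Fos, Fosb, Fosl1, Fosl2, Jun, Junb, Jund, Atf3, Egr1 and Ier2, which are 10 of the 12393 genes that the arrays measured under a name of their own. A probe set, the group of array probes that reports 1 transcript, was taken for a gene where the platform annotation gave it that single symbol. Where a gene had more than 1, the brightest on average over the 6 arrays stood for it, and all 10 genes had one, from 12 probe sets in all. Only Fosl1 and Jun had a further probe set, and its values are given beside the main ones.

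Eyeballs were taken whole at postnatal day 1, and RNA was measured in 3 wild-type pups and 3 pups of the genotype Brg1 cKO, called controls and mutants below, all of a mixed background, to ask which genes of the eye depend on Brg1. By the study's methods the Brg1 cKO pups carried 2 floxed alleles of Brg1 and a Cre driver, Le-Cre, that works in surface ectoderm and so reaches the lens, the cornea and the epidermis of the eyelid. Both the labels and the study's methods call the controls of these arrays wild type, littermates by the methods, while the study's histology used Brg1 flox/flox littermates. No group of arrays carried Le-Cre alone, so that effects of Cre and of Brg1 loss on RNA cannot be told apart here. The study reports that Le-Cre mice looked like wild type. It also reports that both Brg1 alleles were often incompletely deleted in embryos of this cross. Each sample was an individual eyeball, much of whose tissue never expressed Cre, and the severity of the eye defect varied between mutants of this cross.

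AP-1 is a dimer of basic leucine zipper proteins in which a Jun protein pairs with another Jun protein, a Fos protein or a relative such as Atf3, and it binds short palindromic sites in DNA. Many of its genes are immediate-early genes: serum, growth factors, injury or stress switch on their transcription within minutes through factors already present in the cell, and their short-lived messages are lost soon after. Because the response is so fast, the time between removal of a tissue and its lysis can raise these messages too. Egr1 and Ier2 are immediate-early genes outside AP-1, the former a zinc finger factor and the latter a small nuclear protein.

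Promoters are shown for the factors on which the values below turn. The sequences are those of RefSeq on assembly GRCm38.p6 and run over the 120 bases before the annotated start, 5′ to 3′ on the strand of the gene. Capitals mark TGACG or its reverse complement CGTCA, the core of the cAMP response element, and TGANNTCA, the spacing of that element as a whole palindrome. Both were searched on both strands, as was TGANTCA, the AP-1 site, and the motifs were chosen after the sequences had been seen.
Fos, chr12:85473770-85473889, plus strand: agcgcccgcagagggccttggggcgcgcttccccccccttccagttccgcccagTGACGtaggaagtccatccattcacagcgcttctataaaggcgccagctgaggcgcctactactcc
Fosb, chr7:19310046-19310165, minus strand: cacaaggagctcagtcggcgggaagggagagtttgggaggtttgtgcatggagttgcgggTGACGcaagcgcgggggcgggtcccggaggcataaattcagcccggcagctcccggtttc
Atf3, chr1:191183334-191183453, minus strand: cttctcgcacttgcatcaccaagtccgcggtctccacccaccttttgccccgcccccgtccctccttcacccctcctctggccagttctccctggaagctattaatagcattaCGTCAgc
Junb, chr8:84978749-84978868, minus strand: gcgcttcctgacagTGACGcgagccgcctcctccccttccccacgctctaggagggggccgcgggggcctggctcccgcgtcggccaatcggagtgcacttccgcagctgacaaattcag
Jun, chr4:95052223-95052342, minus strand: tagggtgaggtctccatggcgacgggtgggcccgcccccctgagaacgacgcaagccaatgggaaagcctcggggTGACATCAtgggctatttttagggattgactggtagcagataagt
Entries were found for 7 of the 10 genes, and Fosl1, Egr1 and Ier2 were the genes without one. TGACG on either strand was in the windows of Fos, Fosb, Atf3 and Junb, which makes 4 of the 7, against 11.7% of the 32851 RefSeq promoters cut to the same length. Its first base lay 66 bases before the start in Fos, 60 in Fosb, 106 in Junb and 7 in Atf3. TGANNTCA was in the windows of Jun, 45 bases before the start, and of Jund, against 7.14% of all promoters. TGANTCA was in none of the 7, against 3.41%, and the window of Fosl2 held none of the 3 motifs. Further motifs searched were TATAAA, in 1 of the 7 (6.34% of all promoters), and CCAAT, in 2 (21.3%). The CArG box, a run of A or T between CC and GG, was in 0 (0.749%). Such matches are letters only, and no binding was measured here.

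Values are log2 of the deposited intensities, and 4.84, the 25th percentile of all values on the arrays, was read as the low end of the scale. Smarca4, which encodes Brg1, read 9.81 to 10.11 in wild-type eyeballs and 9.93 to 10.35 in Brg1 cKO eyeballs on its brighter probe set (difference 0.18, limma adjusted p = 0.866). Its dimmer probe set read 9.21, 8.37 and 8.67 in the controls and 7.82, 7.79 and 8.55 in the mutants, a difference of -0.70 (SE 0.30, unadjusted p = 0.0517, adjusted p = 0.598 in limma). The probe sets thus differed in sign and overlapped between the genotypes, and the gene does not settle the labels. The array of Brg1 cKO replicate 1 came from a male and the other 5 from females, judged from Xist. Brg1 cKO replicate 2 stood apart on the first principal component, at 75.2 against 11.9 to 19.3 in the other Brg1 cKO arrays and -44.4 to -28.8 in wild type. Summed intensities of the lens markers were 79580 to 87980 in wild-type eyeballs and 19999 to 53019 in Brg1 cKO eyeballs, and those of retina were 14454 to 16374 and 12383 to 20656, so that both tissues were present in every sample. Sums for the other tissues of the eye, controls first, were 8856 to 9954 against 924 to 3497 for cornea and conjunctiva, 2976 to 4484 against 6232 to 10371 for epidermis (2916 to 4454 against 3151 to 5202 without Krt16, a keratin of stressed epidermis), 10920 to 12142 against 11826 to 13670 for pigment cells, 31977 to 41926 against 29889 to 39539 for fibroblasts and 248 to 432 against 178 to 584 for red blood cells. Of the 6 epidermal markers, 3 had a higher mean in the mutants and Krt1, Krt10 and Krt5 a lower one, at differences of -0.60, -0.37 and -0.02. Signals from the 3′ and 5′ ends of actin, a measure of RNA quality, were 0.93 to 1.12 apart among the controls and 0.98, 1.29 and 1.34 apart in mutant replicates 3, 1 and 2. For Gapdh they were 1.05 apart in mutant replicate 2 and 0.73 to 0.87 apart in the other 5 arrays. These are bulk samples, and a change in the number of cells of a type cannot be told apart from a change in RNA per cell.

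None of the 10 factors differed between the genotypes past a Benjamini-Hochberg adjusted p of 0.05 in limma, a threshold that 0.694% of all 12393 genes passed in either direction. At an unadjusted p under 0.05 with a fold over 1.5, the count was 1 of 10, Junb, against 7.3% of all genes. The methods' template matching with the same fold also gave 1. Junb was also the only one of the 10 whose values did not overlap between the genotypes, against 14.8% of all genes. The first count became 3 without wild-type replicate 3 and 2 without Brg1 cKO replicate 1, and the second became 2 or 3 without wild-type replicates 1 or 3 or Brg1 cKO replicates 1 or 3. The mean was higher in Brg1 cKO for 8 of the 10, beside 6554 of all 12393 genes. Their median difference, Brg1 cKO minus wild type, was 0.21 log2 units, beside 0.02 over all genes. With 10 genes, the counts called and not overlapping are close to the background, and all of these are a description only.

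Among the Fos proteins, which bind DNA mainly as partners of Jun proteins, Fos itself varied widely within both genotypes. Its values were 8.83, 8.21 and 10.03 for wild-type replicates 1 to 3 and 8.67, 10.78 and 10.17 for the mutants in the same order, which is kept below. Wild-type replicate 3 therefore lay with the higher mutants and Brg1 cKO replicate 1 with the lower controls. The difference was 0.85 (SE 0.63, 95% interval -0.62 to 2.33), a fold of 1.80, with an adjusted p of 0.800. Leaving out Brg1 cKO replicate 2 brought it to 0.40, and leaving out wild-type replicate 3 to 1.36.

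Fosb, which like Fos serves as a marker of recent neuronal activity, read 2.77, 2.50 and 5.69 in the wild-type arrays and 3.39, 3.74 and 3.82 in the Brg1 cKO arrays. Only wild-type replicate 3 lay above the low end of the scale, and the other wild-type arrays lay below every Brg1 cKO array. The means of the genotypes were nearly equal, with a difference of -0.0041 (SE 0.78, interval -1.82 to 1.81, adjusted p = 0.999). Without wild-type replicate 3 the difference was 1.01, again with values under the low end.

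Fosl2, which encodes the Fos relative Fra-2, read 3.63, 3.85 and 4.22 in wild-type eyeballs and 3.80, 5.42 and 4.19 in Brg1 cKO eyeballs. Brg1 cKO replicate 2 was the single array above the low end, and the difference of 0.57 (SE 0.41, adjusted p = 0.789) fell to 0.10 without it.

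Fosl1, which encodes Fra-1, a Fos protein prominent in epithelial cells at wound edges, gave unlike values on its 2 probe sets. The brighter one, 1417488_at, read 4.01, 3.67 and 4.09 in wild-type eyeballs and 3.72, 4.41 and 4.05 in Brg1 cKO eyeballs, all under the low end and overlapping. Its difference was 0.14 (SE 0.23, interval -0.40 to 0.68, adjusted p = 0.917). The dimmer one, 1417487_at, read 2.49, 2.24 and 3.06 in the controls and 4.13, 5.30 and 5.09 in the mutants. There all 3 mutants lay above all 3 controls, with 2 of them above the low end, and the difference was 2.24 (SE 0.36, interval 1.41 to 3.08), a fold of 4.73. Its adjusted p was 0.0566, just short of the threshold, and it ranged from 0.0223 to 0.282 over the alternatives, with differences of 2.01 to 2.60. The threshold was passed with arrays shifted to the same median (0.0482), with an intensity trend in the prior variance (0.0279), with array weights (0.0432) and without Brg1 cKO replicate 1 (0.0223). Which transcripts each probe set reads was not analysed here.

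**Figure D1:**
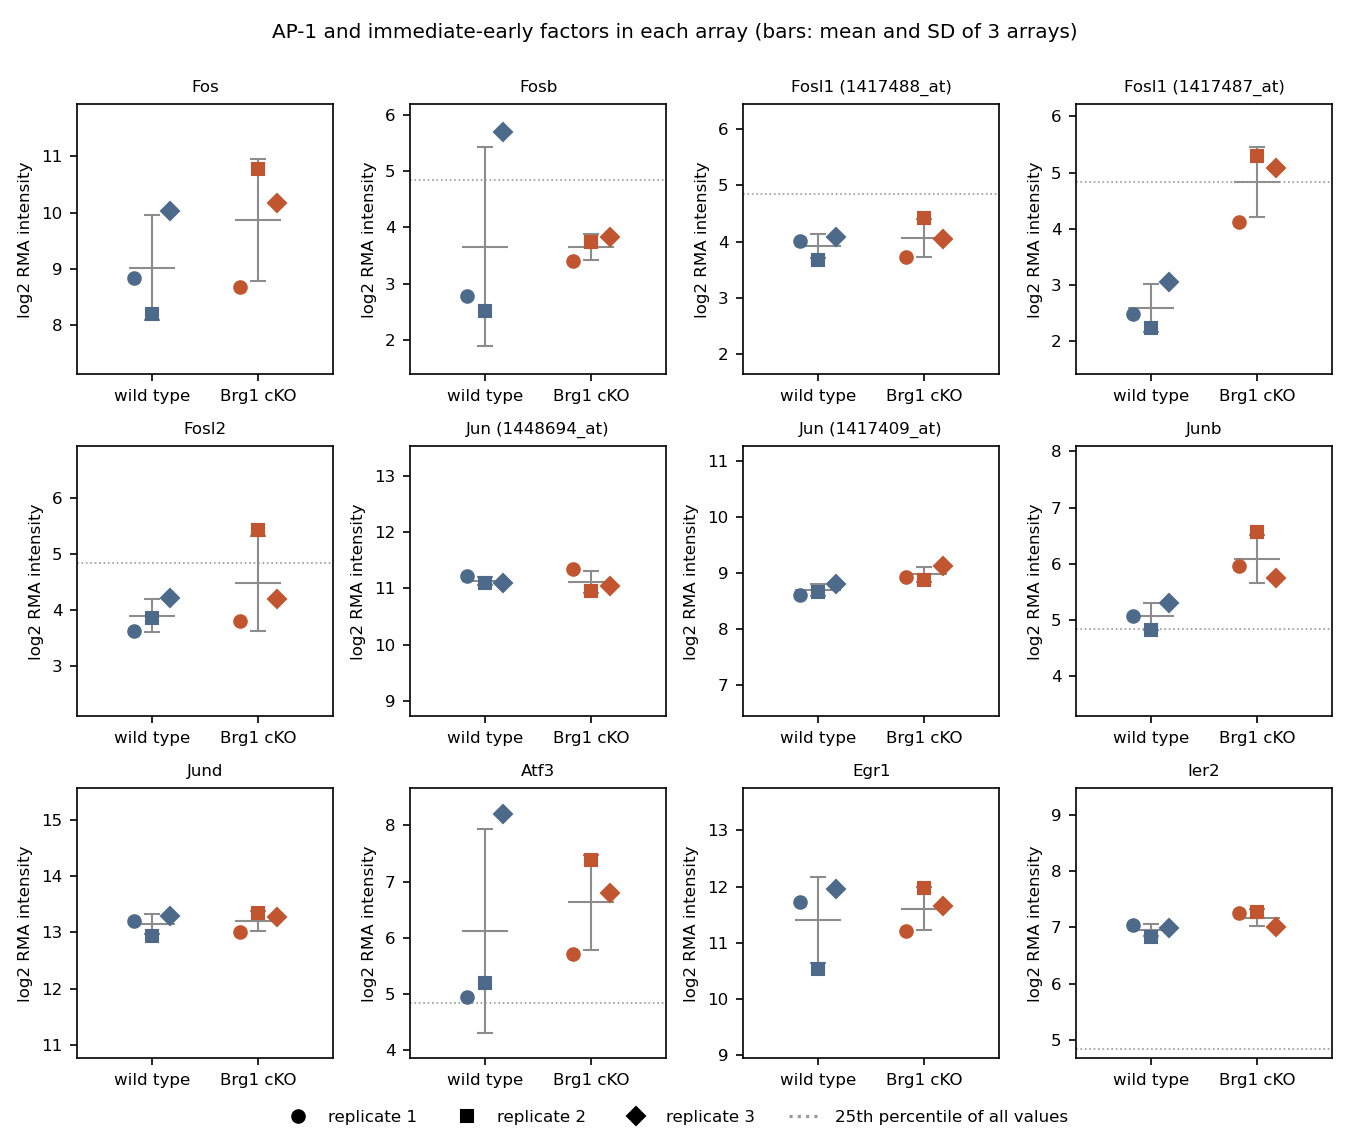
Log2 RMA intensity of the 10 factors in each of the 6 arrays, 1 panel per probe set, with Fosl1 and Jun shown by both of theirs; all panels span the same number of log2 units, symbols give the replicate, and grey marks give the mean and SD of 3 arrays. Fos, Fosb, Atf3 and Egr1 are spread over more than 1 log2 unit within wild type, with replicate 3 on top. Jun, Jund and Ier2 lie close together in all arrays. Junb and the second Fosl1 probe set are separated by genotype, as is, by a narrow margin, the second Jun probe set.

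Among the Jun proteins, which can pair with each other as well as with Fos proteins, Junb gave the clearest separation. Junb, often an antagonist of Jun and abundant in epidermis and myeloid cells, read 5.08, 4.82 and 5.31 in wild-type eyeballs and 5.96, 6.56 and 5.75 in Brg1 cKO eyeballs. The lowest mutant was above the highest control, but the controls lay near the low end of the scale, with replicate 2 just under it. The difference was 1.02 (SE 0.26, interval 0.42 to 1.62), a fold of 2.03, with an unadjusted p of 0.00498 and an adjusted p of 0.246 in limma. Permuting the 6 values exactly (two-sided) gave p = 0.1, the smallest that 3 arrays against 3 allow. The difference stayed between 0.78 and 1.19 over the alternatives, and the adjusted p between 0.205 and 0.634. Replicate 2 was the highest Brg1 cKO array here, and the difference was lowest without it. Summed neutrophil and macrophage markers were higher in all mutants than in any control. The margin was narrow for macrophages (at most 3069 against at least 3092), and for neutrophils the rise came through S100a8 and S100a9. Summed epidermal markers were higher too, at 6232 to 10371 against 2976 to 4484. Without Krt16, which differed by 6.93 (limma adjusted p = 0.000901), their ranges overlapped. The part of these cell types in the values of Junb and Fosl1 was not tested.

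Jun, the founding AP-1 protein, read 11.21, 11.10 and 11.09 in wild-type eyeballs and 11.34, 10.96 and 11.05 in Brg1 cKO eyeballs on its brighter probe set. All 6 arrays lay within 0.38 log2 units, and the difference was -0.02 (SE 0.18, interval -0.43 to 0.39, adjusted p = 0.985). Its dimmer probe set read 8.61, 8.66 and 8.81 in the controls and 8.93, 8.88 and 9.12 in the mutants, a narrow separation in which the difference of 0.28 (SE 0.17, interval -0.11 to 0.67) had an adjusted p of 0.738. Jund, the Jun protein that most tissues express steadily, read 13.21, 12.94 and 13.29 in wild-type eyeballs and 13.00, 13.34 and 13.28 in Brg1 cKO eyeballs. The genotypes overlapped, with a difference of 0.06 (SE 0.19, interval -0.38 to 0.50, adjusted p = 0.959).

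Atf3, a stress-induced repressor of the ATF family that can join AP-1 dimers, had the widest range of the 10 over the 6 arrays, 3.25 log2 units. It read 4.96, 5.21 and 8.21 in wild-type eyeballs and 5.72, 7.39 and 6.79 in Brg1 cKO eyeballs. Wild-type replicate 3 was above every mutant, while the other controls were below every mutant. The difference was 0.51 (SE 0.87, interval -1.52 to 2.54, adjusted p = 0.919), and it was 1.55 without wild-type replicate 3 and 0.13 without Brg1 cKO replicate 2.

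Egr1, which serum response factor and its partners switch on, read 11.73, 10.53 and 11.95 in wild-type eyeballs and 11.21, 11.97 and 11.65 in Brg1 cKO eyeballs. The odd array was wild-type replicate 2, the lowest of the 6, and the difference of 0.21 (SE 0.40, interval -0.72 to 1.14, adjusted p = 0.928) turned to -0.23 without it. Ier2 read 7.04, 6.83 and 6.99 in the controls and 7.25, 7.27 and 7.01 in the mutants. These 6 values spanned 0.44 log2 units, with a difference of 0.22 (SE 0.17, interval -0.18 to 0.62, adjusted p = 0.803).

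**Figure D2:**
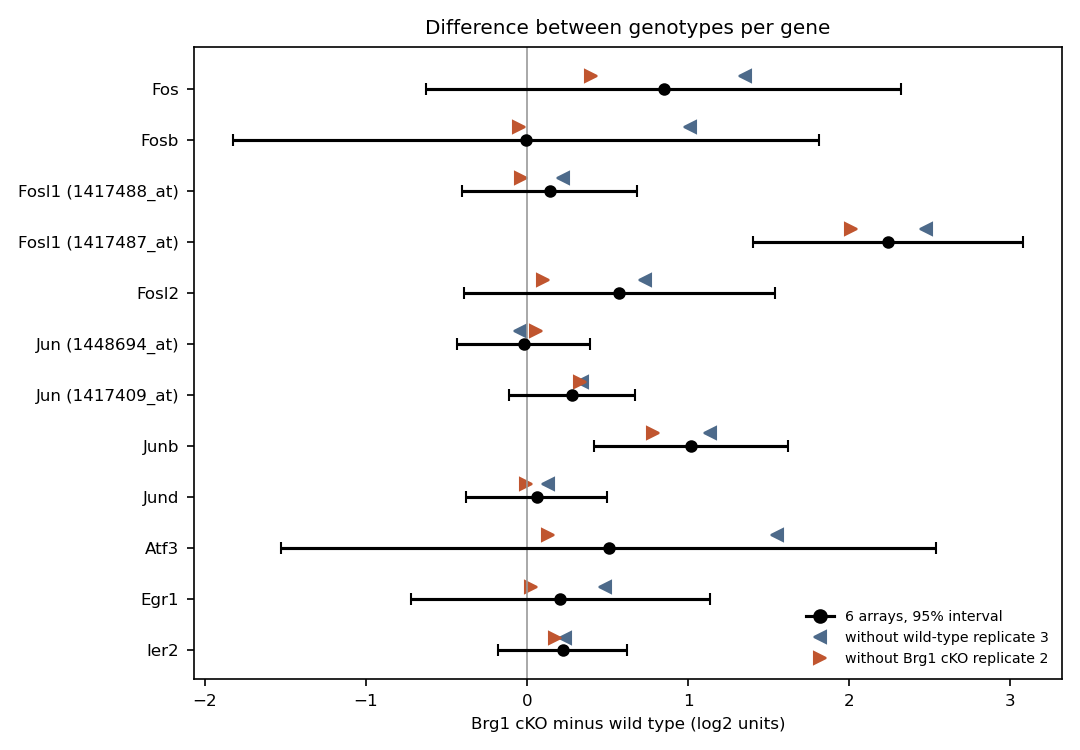
Difference of each factor between the genotypes in log2 units (circles) with its 95% interval, unadjusted for multiple tests, and the difference without wild-type replicate 3 or without Brg1 cKO replicate 2 (triangles). The intervals of Junb and of the Fosl1 probe set 1417487_at lie above 0, at 0.42 to 1.62 and 1.41 to 3.08, and the triangles lie far apart for Atf3, Fosb and Fos.

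Single arrays were then compared, since the handling of 1 eyeball would show in 1 array. The shift of a mutant array is its difference from the mean of the 3 controls, and a control was set against the mean of the other controls. Wild-type replicate 3 was shifted by 3.13 log2 units in Atf3, by 3.05 in Fosb, by 1.52 in Fos and by 0.82 in Egr1. Ordered from the highest shift down, Atf3 stood at rank 2 of the 12393 genes, Fosb at rank 3, Fos at rank 54 and Egr1 at rank 403. The other controls, from which these shifts were taken, lay near the low end in Atf3 (4.96 and 5.21) and under it in Fosb (2.77 and 2.50). Wild-type replicate 3 was shifted by only 0.05 in Ier2, by 0.21 in Jund and by -0.07 in Jun, so that the shift did not extend to all 10.

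In wild type, replicate 3 was the highest array for 8 of the 10 factors, beside 34.9% of all genes, and replicate 2 was the lowest for 7, beside 32.5% of all genes. In Brg1 cKO, replicate 2 was the highest for 8, beside 36.6%, and replicate 1 the lowest for 7, beside 28.5%. Genes that share a response are not independent, and these counts are given without a test. The median shift of the 10 was 0.42 in wild-type replicate 3 and -0.37 in wild-type replicate 2, against 0.02 and 0.01 over all genes. In Brg1 cKO replicates 1 to 3 it was -0.17, 0.53 and 0.21, against 0.07 at most over all genes, and the value of replicate 2 was 0.97 without wild-type replicate 3.

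The genes behind the shift were not the same in these arrays. In Brg1 cKO replicate 2 the shift was 1.76 for Fos, 1.52 for Fosl2, 1.49 for Junb and 1.27 for Atf3, but 0.08 for Fosb, which was the third most shifted of all genes in wild-type replicate 3. In Brg1 cKO replicate 1, Junb was 0.89 above the wild-type mean while the shifts of Fos and Atf3 were -0.35 and -0.41. Without wild-type replicate 3 and Brg1 cKO replicate 2 together, 0 of the 10 factors passed the threshold, and 3 passed the unadjusted limit with its fold.

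**Figure D3:**
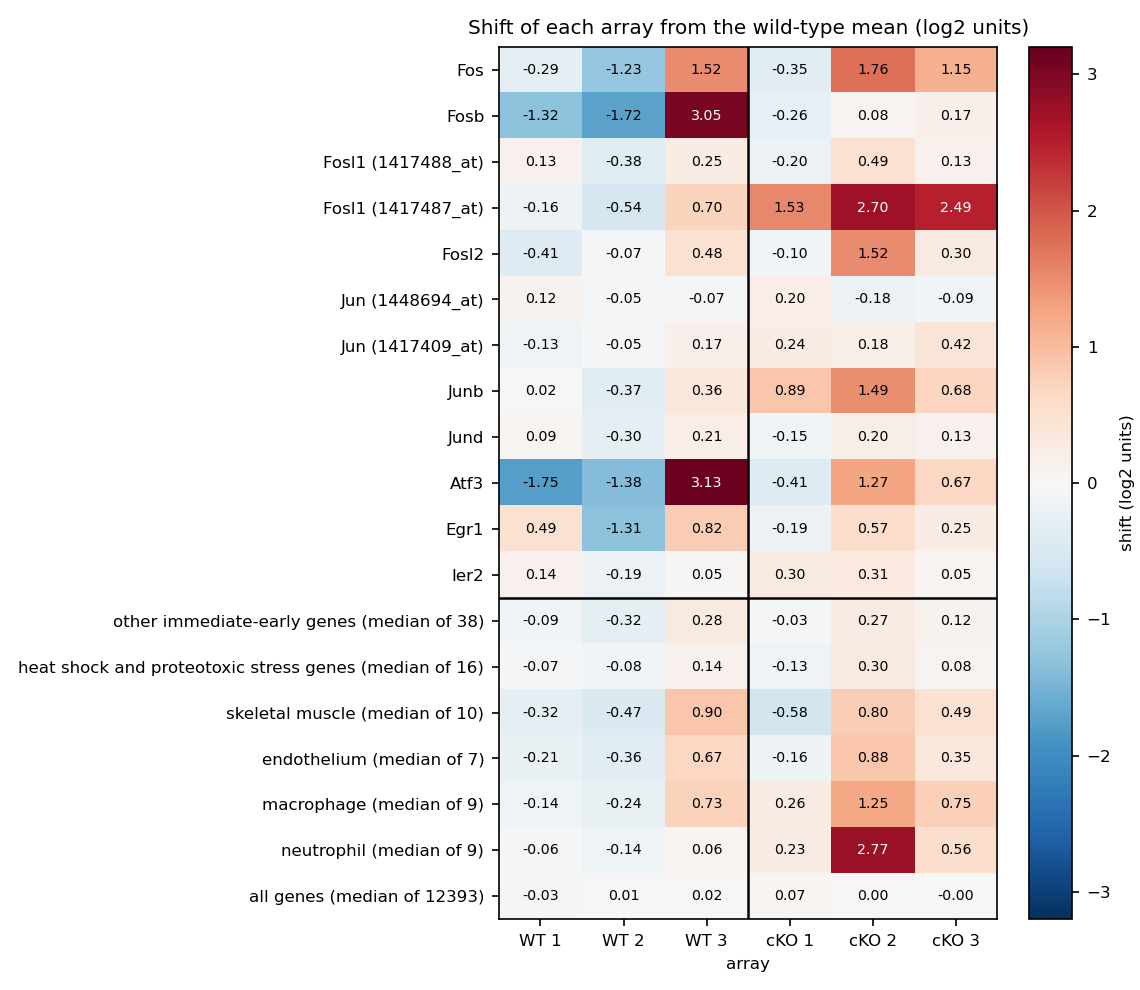
Shift of each array (columns) from the mean of the controls, a control itself being left out of that mean, in log2 units, for the factors by probe set (above the line) and as medians of gene lists (below it). Wild-type replicate 3 stands out in Atf3 (3.13), Fosb (3.05) and Fos (1.52), and Brg1 cKO replicate 2 in Fos, Fosl2, Junb and Atf3. The skeletal muscle, macrophage and endothelium lists are raised in both arrays (0.90, 0.73 and 0.67 against 0.80, 1.25 and 0.88). The neutrophil list is at 2.77 in Brg1 cKO replicate 2 and at 0.06 in wild-type replicate 3.

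Marker lists of skeletal muscle, macrophages and endothelium moved with the same arrays. Others moved less or the other way, with median shifts in wild-type replicate 3 and Brg1 cKO replicate 2 of -0.12 and -0.36 for retina. For pigment cells these shifts were 0.086 and -0.095, and for fibroblasts 0.40 and 0.11. Lens markers were at -0.01 and -0.65, against -2.43 and -3.24 in Brg1 cKO replicates 1 and 3. The 10 skeletal muscle markers had a median shift of 0.90 in wild-type replicate 3, where all 10 were at their wild-type maximum, and of -0.58, 0.80 and 0.49 in Brg1 cKO replicates 1 to 3. Their summed intensity was 30451 to 48228 in the controls and 23880 to 56716 in the mutants. The 9 macrophage markers were shifted by 0.73 in wild-type replicate 3 and by 1.25 in Brg1 cKO replicate 2, with sums of 2203 to 3069 and 3092 to 5920, and the 7 endothelial markers by 0.67 and 0.88, with sums of 2747 to 3756 and 2621 to 4270. The 9 neutrophil markers were shifted by 0.06 in wild-type replicate 3 but by 2.77 in Brg1 cKO replicate 2. Their sums were 457 to 646 in the controls and 6967 to 22167 in the mutants, with Mpo and Elane, which mark immature granulocytes, under the low end in all arrays. S100a8 and S100a9, the calprotectin subunits, made up 97.9% to 98% of the sum in the mutants, and the other 7 markers summed to 130 to 171 in the controls and to 144, 471 and 155 in mutant replicates 1 to 3. Of the 9, 3 were separated by genotype, and Ltf, a granule protein, was at a difference of -0.51. The part of these cells in the values of Fos, Atf3, Fosb and Junb was not tested, and no source used here gives the times of dissection.

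A list of 16 heat shock and proteotoxic stress genes, which slow warming or damage of a tissue can raise, was shifted by 0.14 in wild-type replicate 3 and by 0.30 in Brg1 cKO replicate 2. Of these 16 genes 0 passed the threshold and 0 the unadjusted limit with its fold, with a median difference of -0.01 between the genotypes. The smallest p-values were those of Sqstm1, an autophagy receptor (0.31, adjusted p = 0.830), and Hspd1, the mitochondrial chaperonin (0.17, adjusted p = 0.837).

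The profile of Atf3, the factor with the widest range, was set against all other genes by the mean absolute difference of log2 values, each gene centred on its mean over the 6 arrays. The nearest was Ankrd1, a nuclear ankyrin repeat protein, at 0.21, with 6.13, 6.25 and 9.37 in wild-type eyeballs and 7.36, 8.97 and 8.18 in Brg1 cKO eyeballs. Nr4a1, an immediate-early orphan nuclear receptor, followed at 0.33 (5.60, 5.32 and 7.47 against 5.87, 7.41 and 6.51). Both had wild-type replicate 3 as the highest of all arrays and Brg1 cKO replicate 2 as the highest mutant, as in Atf3. Then came Fcer1a, a chain of the IgE receptor, at 0.35, Asb5, an ankyrin repeat protein with a SOCS box, at 0.37 and Pvalb, a calcium-binding protein, at 0.38. The skeletal muscle markers also had their highest median shift in wild-type replicate 3 among the controls (0.90) and in Brg1 cKO replicate 2 among the mutants (0.80). The part of muscle content in the profiles of Atf3 and its neighbours was not tested. Among the other factors, Fosb was at rank 7 of 12392 genes and Fos at rank 19, whereas Egr1 was at rank 365, Junb at rank 613 and Jun at rank 8877.

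The genes around AP-1 were then examined in lists. Over all 12393 genes, 1153 had an unadjusted limma p under 0.05, 905 (7.3%) also a fold over 1.5, and 6554 a higher mean in Brg1 cKO. These are the background for the counts of each list. Of 42 other immediate-early genes 38 were measured, of which 0 passed the threshold in limma, 8 had an unadjusted p under 0.05 and 6 of these a fold over 1.5. Of the 38, 24 had a higher mean in Brg1 cKO, with a median difference of 0.11. The smallest p belonged to Socs3, a feedback inhibitor of cytokine signaling, which read 7.21, 7.06 and 7.74 in the controls and 8.89, 10.08 and 8.54 in the mutants. Its difference was 1.83 (SE 0.41, adjusted p = 0.173), without overlap between the genotypes. Cebpd, an acute-phase transcription factor, read 6.55, 6.52 and 7.54 in the controls and 7.38, 8.12 and 7.79 in the mutants, a difference of 0.90 (SE 0.33, adjusted p = 0.517). As in Fos, wild-type replicate 3 of Cebpd lay among the mutants. The list as a whole was shifted by 0.28 in wild-type replicate 3, where 22 of the 38 genes had their wild-type maximum.

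Of 20 other basic leucine zipper factors 17 were measured, of which 0 passed the threshold and 2 the unadjusted limit with its fold, and 15 had a higher mean in Brg1 cKO, with a median difference of 0.32. These 2 had the smallest p-values. Crem, a cAMP-responsive modulator, read 6.75, 6.78 and 6.996 in the controls and 7.47, 8.24 and 7.59 in the mutants, a difference of 0.92 (SE 0.24, adjusted p = 0.263). Batf3, a partner of Jun proteins needed by a subset of dendritic cells, differed by 0.75 (SE 0.26, adjusted p = 0.469). In both, all mutants lay above all controls. The shift of the list was largest in Brg1 cKO replicate 2, at 0.72, against 0.13 in replicate 1 and 0.23 in replicate 3.

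Upstream of AP-1, 21 of 24 kinases and regulators were measured, of which 0 passed the threshold and 2 the unadjusted limit with its fold, with a median difference of 0.15. Map2k1, the kinase MEK1 that activates ERK, read 9.74, 10.18 and 10.16 in the controls and 10.78, 11.07 and 10.60 in the mutants, a difference of 0.79 (SE 0.21, adjusted p = 0.275). Mapk11, a p38 kinase, differed by 0.64 (SE 0.25, adjusted p = 0.543). In both, the genotypes did not overlap.

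Among genes that textbooks give as AP-1 targets, 22 of 23 were measured, and 3 rose and 0 fell past the threshold, against 0.428% of all genes that rose. The list was drawn up with results of these arrays known, so its count is no independent evidence of AP-1 activity, and these genes have other regulators too. The genes that rose were Mmp3, Mmp10 and Sprr1b. Mmp10, the matrix metalloproteinase stromelysin-2 of wounded epithelium, read 3.99, 4.54 and 3.94 in the controls and 6.70, 8.80 and 8.22 in the mutants, a difference of 3.75 (SE 0.51), with an adjusted p of 0.0312. The lowest mutant was more than 2 log2 units above the highest control, which lay under the low end. The adjusted p was 0.184 without wild-type replicate 1, 0.117 without wild-type replicate 2, 0.144 without wild-type replicate 3 and 0.125 without Brg1 cKO replicate 3. The related stromelysin Mmp3 differed by 6.14 (SE 0.29, adjusted p = 0.00054) and Sprr1b, a cornified envelope precursor, by 5.55 (SE 0.29, adjusted p = 0.000686). Of the 22 genes, 12 passed the unadjusted limit with its fold and 19 had a higher mean in Brg1 cKO, with a median difference of 0.88. Without Brg1 cKO replicate 1, 5 passed the threshold. In the single mutants the median shift was 0.61, 1.60 and 0.96 in replicates 1 to 3. Neutrophil and macrophage markers were highest in replicate 2 as well, while the epidermal sum was highest in replicate 3, at 10371. The part of these cell types in the list was not tested.

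**Figure D4:**
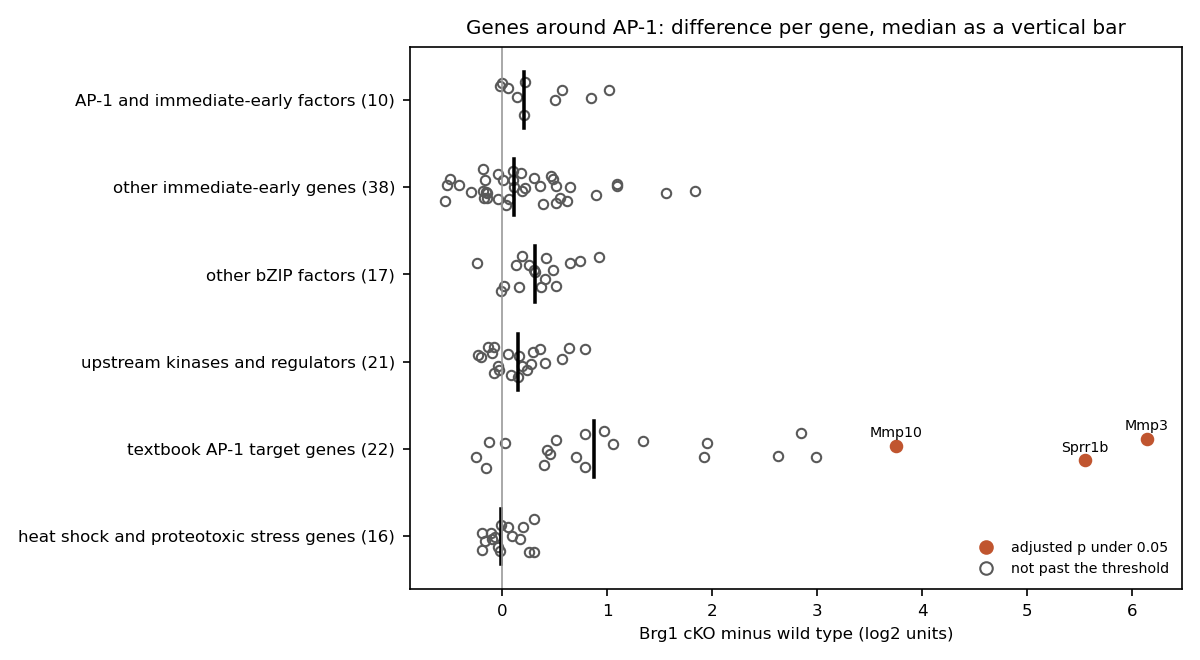
Difference between the genotypes in log2 units for each measured gene of the factors and of 5 lists around AP-1, with the number measured in brackets, the median of each list as a vertical bar, and genes past the adjusted threshold filled and named. Only Mmp3 (6.14), Sprr1b (5.55) and Mmp10 (3.75) are filled, while all 10 factors lie between -0.02 and 1.02 without passing.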

How the data were processed

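Total RNA, 50 ng per eyeball by the labels, went through NuGEN Ovation amplification and onto Affymetrix mouse arrays, 1 per sample. The authors made the deposited values with RMA, which corrects background, equalises arrays and summarises probe sets; no source used here names its software. What the authors deposited are linear intensities, of which log2 was taken. RMA compresses differences near background, and the table held no detection calls or counts, so the number of arrays limits precision.

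Of 22690 rows, 64 controls were left out. The other 22626 were fitted in R 4.3.3 by limma 3.58.1 on genotype alone, with a two-sided test and Benjamini-Hochberg adjustment, on code tested on simulated data. All intervals, and all adjusted p-values not given for an alternative, come from this model. Its p-values set the mean difference against the variance between these 3 pups per genotype, moderated by limma over all probe sets. Platform annotation, which can be old, gave 1 gene to 20380 probe sets, several to 691 and none to 1555.

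The genes named are the 10 factors, from each list those past the threshold or the 2 with the smallest p, and the 5 nearest to the factor with the widest range. Both probe sets of Fosl1, Jun and Smarca4, Xist, and single markers of epidermis and neutrophils were named besides, the last after their values were seen. The members and lists were chosen with earlier results of these data known. Maff stood in 2 lists, those of immediate-early and leucine zipper genes. Alternatives were another quantile normalization, a common median, a filter on dim probe sets, the replicate block, an intensity trend, array weights, each array left out, the mean of probe sets, and the methods' template matching. The pair of arrays left out together and the dimmer probe sets were added after seeing the data. Lists for lens, retina, pigment epithelium, cornea, epidermis, muscle, blood, immune cells, vessels and fibroblasts were used to check the tissue.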

Additional observations from a re-analysis of the deposited data

How the results depend on the processing

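With 3 eyeballs per genotype, the intervals of Fos, Fosb, Atf3 and Egr1 are wide enough to hold both a rise and a fall of more than 1.5-fold. Values under 4.84 lie where signal over background limits what can be read, which concerns Fosb, Fosl1 and Fosl2. The controls of Junb, at 4.82 to 5.31, lay at or near that limit too, which bears on the size of its difference. Wild-type replicates 1 and 2 of Atf3, at 4.96 and 5.21, also lay near it. In all settings run, 0 of the 10 factors passed the adjusted threshold, the dimmer probe set of Fosl1 apart, as did 0 genes of the lists of other immediate-early genes, other basic leucine zipper factors, upstream regulators and heat shock genes. Fos, Fosl2, Junb and Ier2 had a higher mean in Brg1 cKO throughout, with differences of 0.40 to 1.45 for Fos and 0.78 to 1.19 for Junb. The filter on dim probe sets gave no value for Fosb, Fosl1 and Fosl2. The cause of the changes below was not tested.

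With each array left out in turn, the count of all probe sets past the threshold, 115 with all arrays, ranged from 24 (without wild-type replicate 1) to 216 (without Brg1 cKO replicate 2). It was 190 with array weights and 820 by the methods' template matching, which makes no adjustment. For its own selection by template matching and fold, the study reports more genes than that. The factors past the unadjusted limit with its fold numbered 1 to 3 and those without overlap 1 to 3 with each array left out. Both counts were 2 with the mean of probe sets and 3 without wild-type replicate 3 and Brg1 cKO replicate 2 together. With the dimmer probe sets of Fosl1 and Jun they were 2 and 3. The AP-1 targets past the threshold numbered 2 to 5. The median difference of the factors ranged from 0.03 to 0.61, and the median shift of Brg1 cKO replicate 2, 0.53 with all arrays, from 0.31 to 0.97.

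Signs turned mainly in differences near 0. Fosb ranged from -0.579 to 1.012 with each array left out, and was at 0.0306 after quantile normalization and at 0.969 without wild-type replicate 3 and Brg1 cKO replicate 2 together. Jun ranged from -0.134 to 0.0579, and was at 0.0213 after quantile normalization, 0.130 with the mean of its probe sets, 0.0345 without the pair of arrays and 0.281 on its dimmer probe set. Jund ranged from -0.0411 to 0.163, Atf3 from -0.0746 to 1.551, Egr1 from -0.230 to 0.482 and Fosl1 from -0.0342 to 0.310. The sign turned without wild-type replicate 1 for Atf3, without wild-type replicate 2 for Egr1 and Jund, and without the second mutant array for Fosl1 and Jund.

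The labels number the replicates 1 to 3 in both genotypes. Deviations of same-numbered arrays from their group means correlated at 0.06, 0.08 and 0.13 over probe sets, and not every array correlated best with its own number, so the numbers were not taken to pair the samples. With the replicate block, 45 probe sets and 0 of the 10 factors passed the threshold.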
